A study of Mus musculus with 9 samples.

Results

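The 10 genes described here carry choline into cells, build phosphatidylcholine and phosphatidylethanolamine from it or alongside it, and turn choline into betaine: Slc44a1, Slc44a2, Chka, Chkb, Pcyt1a, Pcyt2, Cept1, Chpt1, Pemt and Chdh. Their members on the array were all probe sets annotated with 1 of these symbols and no other, which gave 19 of the 22626 probe sets that are not controls. Of these, 17 were bright enough to be tested, and each of the 10 genes had at least 1 of them. A further probe set carries Chkb together with other symbols and was not used. The probe sets were picked by their annotated symbol, not by their values.

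RNA came from the proximal colon of 9 mice, each on its own Affymetrix array, with 3 mutant, 3 heterozygous and 3 wild-type mice for cSHMT, the cytosolic serine hydroxymethyltransferase encoded by Shmt1. All 3 genotypes shared the rest of the design. The cSHMT line was on C57Bl/6 after 10 generations of backcrossing, and every mouse was weaned at 3 weeks onto an AIN-93G diet from which folate and choline had been left out. The labels give an age of 9 weeks, and disagree on the time on the diet, with 6 weeks among the sample characteristics but 5 weeks in the growth protocol. They do not describe the cSHMT allele. There was no group on a diet with choline, so the effect of the diet itself was not measured and every comparison is between genotypes on the same diet.

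Choline is taken up by transporters and phosphorylated by choline kinase, and the phosphocholine is activated with CTP to CDP-choline and joined to diacylglycerol to give phosphatidylcholine, the main phospholipid of cell membranes. This CDP-choline or Kennedy pathway has a parallel branch for ethanolamine, whose product phosphatidylethanolamine can be methylated to phosphatidylcholine by Pemt, a reaction that uses S-adenosylmethionine and takes place mainly in the liver. Choline can instead be oxidised to betaine, whose methyl group can remake methionine in the liver and kidney, an alternative to the folate-dependent route. In the colon, phosphatidylcholine is also a component of the mucus barrier.

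The labels were first checked on Shmt1. Its probe set 1425177_at read 116.9, 120 and 113.1 signal units in mutant colons, 297.9, 274.4 and 337 in heterozygous colons, and 564.3, 575.7 and 644.1 in wild-type colons, so on that probe set the 3 genotypes stood apart in the order the labels give. On its other tested probe sets, 1425179_at and 1425178_s_at, all mutant values again lay below the others, while heterozygous and wild-type values overlapped (369.7 to 495.6 against 463.3 to 529.3, and 215.8 to 307.9 against 305.9 to 368.9). The 12 markers of colon epithelium were all bright enough to be tested, and their summed signal was 40476.8 to 51316.3 in mutant, 41032.8 to 47127.4 in heterozygous and 43660.4 to 50149.3 in wild-type colons. Correlations of normalized log2 signal between arrays were 0.9858 to 0.9934. The 3'/5' ratio of the beta-actin control, which is higher where RNA or its copies are shorter, was 4.839, 3.753 and 2.730 in the mutant arrays numbered 1, 2 and 3, against 4.455, 3.045 and 2.569 in the heterozygous and 5.017, 3.152 and 2.519 in the wild-type arrays. In every genotype the array numbered 1 had the highest ratio. The colon samples are bulk tissue, in which fewer cells of a type and less RNA per cell cannot be told apart.

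No probe set of the 10 genes differed between genotypes after adjustment over all 13576 tested probe sets (limma, Benjamini-Hochberg adjusted p at or under 0.05). This held for mutant against wild-type, where 0.0221% of all tested probe sets passed, for heterozygous against wild-type, where 0% passed, and for mutant against heterozygous, where 0.0221% passed. The smallest adjusted p among the 17 probe sets was 0.998 for mutant against wild-type, 0.595 for heterozygous against wild-type and 0.496 for mutant against heterozygous. At an unadjusted p under 0.05, 1 of the 17 passed in mutant against wild-type (Chpt1, lower), against 3.84% of all tested probe sets in either direction and 1.92% in that one. The count was 1 of 17 in heterozygous against wild-type (Pcyt2, lower), against 8.01% in either direction and 3.55% in that one. It was also 1 of 17 in mutant against heterozygous (Pcyt2, higher), against 7.56% in either direction and 4.07% in that one. A count of 1 of 17 in each comparison is near what the whole array gave.

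The median log2 fold change over the leading probe sets, the 1 with the highest mean per gene, was -0.05 in mutant against wild-type, where the median of all tested probe sets was 0.0036. It was 0.04 in heterozygous against wild-type (all tested, -0.0044) and -0.09 in mutant against heterozygous (all tested, 0.0013). Fold changes were computed on quantile normalized log2(signal + 16) values, and signals are given as deposited, in linear units. For all 10 leading probe sets and in all 3 comparisons, the 95% interval of the log2 fold change lay between -1 and 1. Changes of 2-fold or more in either direction were therefore outside the intervals for these probe sets, whose widest bounds, -0.74 and 0.82, both came from mutant against heterozygous. Over the 17 probe sets, 7 log2 fold changes were above 0 and 10 below in mutant against wild-type, 11 above and 6 below in heterozygous against wild-type, and 6 above and 11 below in mutant against heterozygous.

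**Figure D1:**
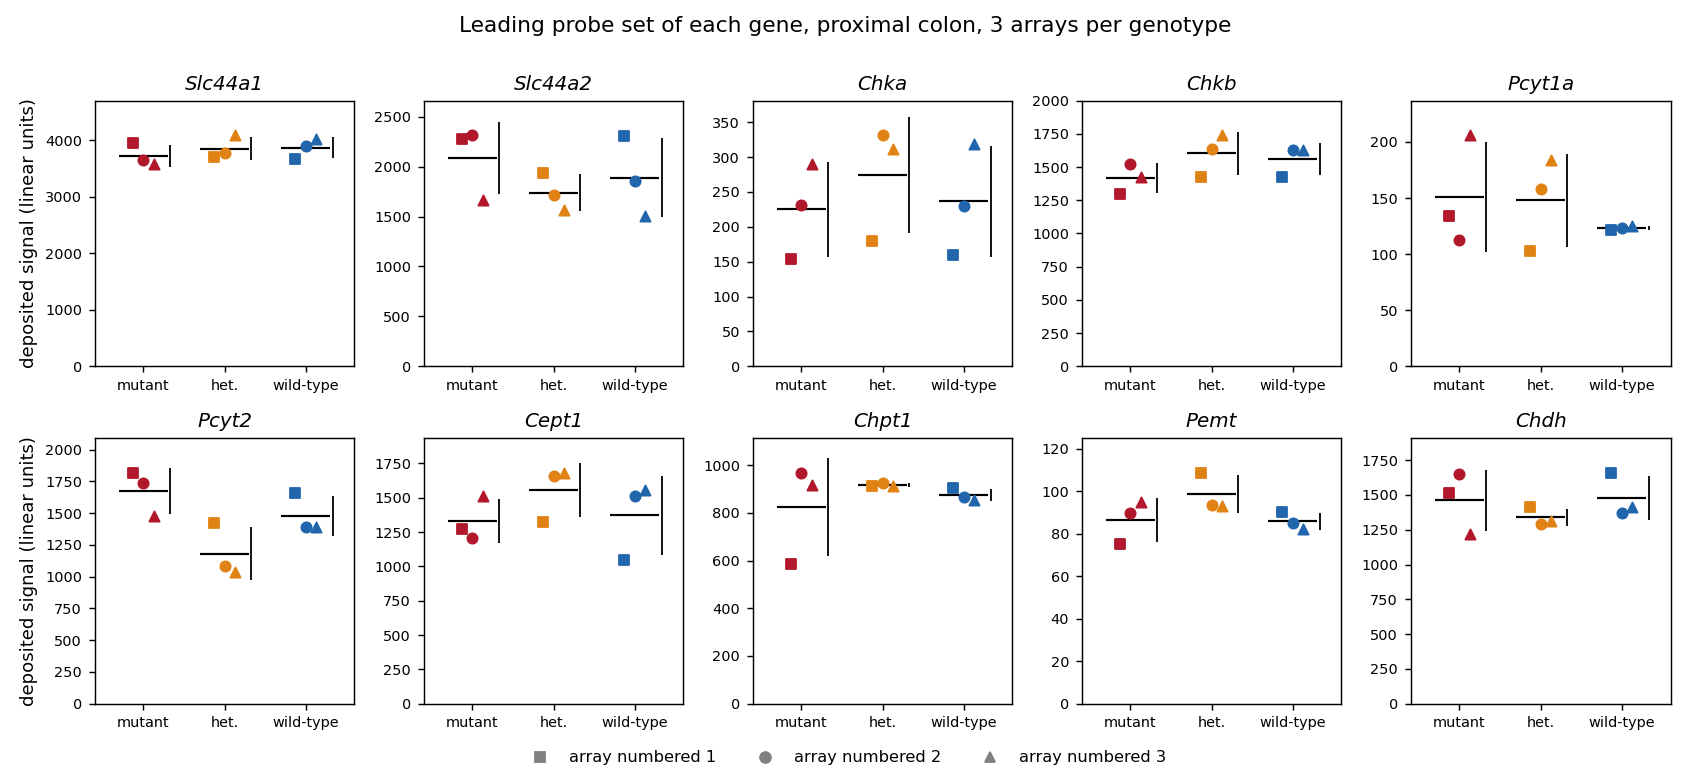
Deposited signal (linear units, axis from 0) of the leading probe set of each of the 10 genes in 9 colons. Red, orange and blue are mutant, heterozygous and wild-type, squares, circles and triangles are the arrays numbered 1, 2 and 3, horizontal lines are means and vertical lines are 1 SD either side of the mean (n = 3). Pcyt2 is the panel in which every mutant value (1473.1 to 1818.9) lies above every heterozygous value (1039.3 to 1421).

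**Figure D2:**
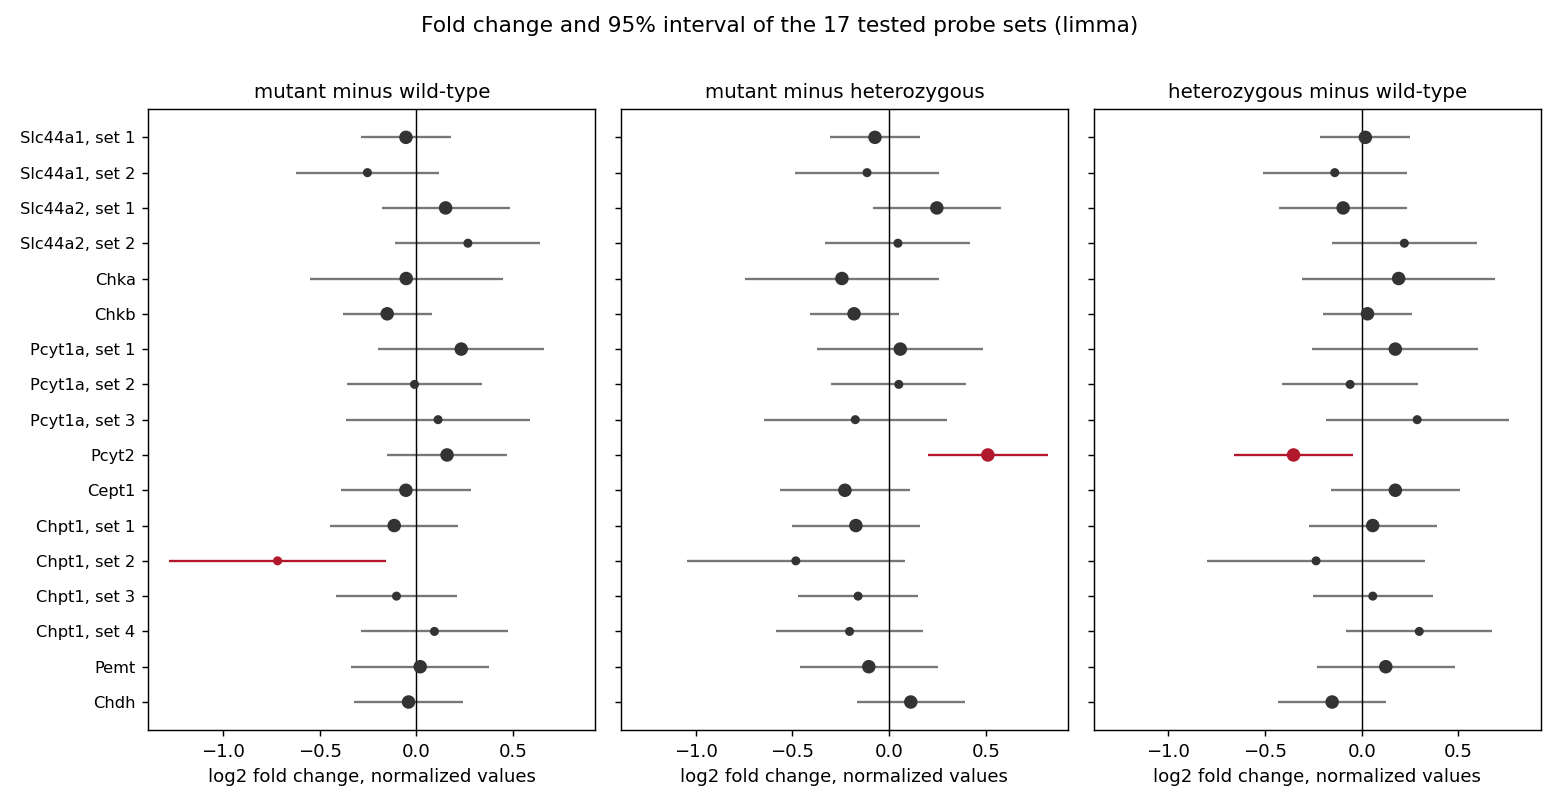
Log2 fold change of the 17 tested probe sets in the 3 comparisons, with 95% intervals from limma. Large points are leading probe sets, small points the other probe sets of the same gene, and red marks an unadjusted p under 0.05, which 1 probe set reached in each comparison.

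Several of the genes varied together from array to array, in 2 sets that ran in opposite directions. Over the 9 arrays, Slc44a1, Cept1, Chka and Chkb varied together, with Pearson's r of normalized log2 signal between 0.67 and 0.88 in their 6 pairs. Slc44a2, Pcyt2 and Chdh formed another set, with r between 0.69 and 0.80 in 3 pairs, and the 12 pairs across the sets had r between -0.90 and -0.33. On the deposited values the same pairs had r between 0.25 and 0.84 and between 0.71 and 0.83 within the sets, and between -0.90 and -0.16 across them. Pemt is in neither set, and its place depended on the scale. With Pcyt2 it had r of 0.23 on normalized values, 0.87 on those within genotype and -0.38 as deposited. These are descriptions of leading probe sets over 9 arrays that share 3 genotypes and the beta-actin ratio, the sets were named after the values were seen, and no p is given. How often other tested probe sets correlate this strongly was not counted. On the deposited values the closest pair of the first set was Cept1 with Chka (r = 0.84, and 0.82 normalized) and that of the other was Chdh with Slc44a2 (r = 0.83, and 0.80 normalized), ahead of Chka with Chkb and Pcyt2 with Slc44a2 (both 0.78), while Cept1 and Slc44a2 were opposed (r = -0.90 on both). On the normalized values the closest pair of the first set was Cept1 with Slc44a1 (r = 0.88, but 0.50 as deposited). For the other genes the most alike member on the normalized values was Slc44a1 for Chkb (r = 0.78), Slc44a2 for Pcyt2 (r = 0.77), Chpt1 for Pemt (r = 0.44) and Cept1 for Pcyt1a (r = 0.32). As deposited, Chkb (r = 0.78) and Pcyt1a (r = 0.59) were each most like Chka, and Pemt with Chpt1 had r of 0.71.

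**Figure D3:**
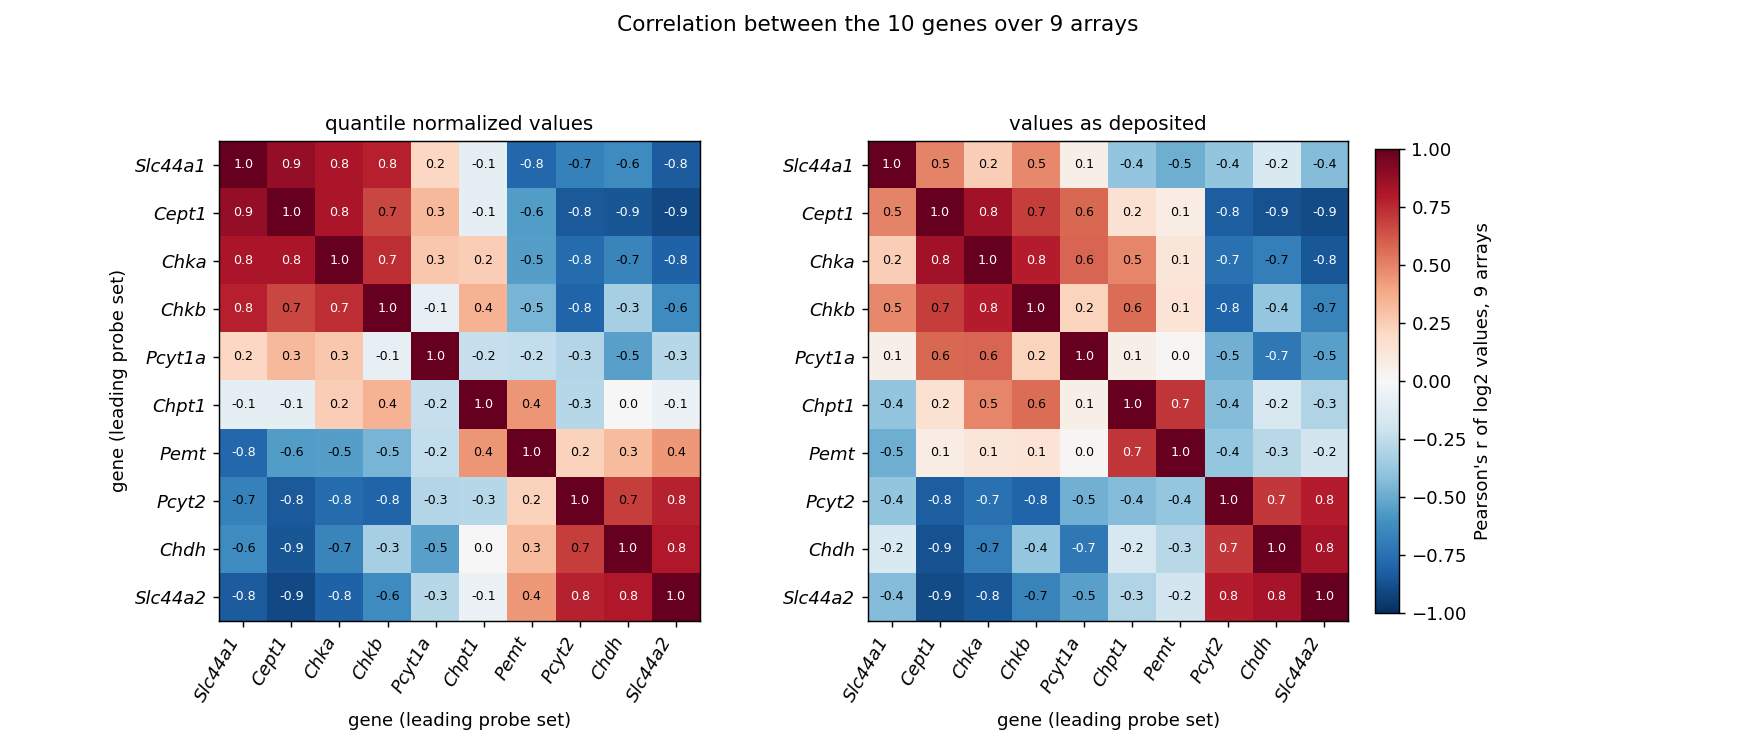
Pearson's r of log2 signal between the leading probe sets of the 10 genes over 9 arrays, on quantile normalized values (left) and on the values as deposited (right). Red is positive and blue negative. The red block at the top left holds Slc44a1, Cept1, Chka and Chkb, the red block at the bottom right Pcyt2, Chdh and Slc44a2, and the corners between them are blue.

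The promoters of Cept1 with Chka and of Chdh with Slc44a2, the closest pair of each set on the deposited values, are shown to set the letters beside this pattern. RefSeq promoter windows of 300 bases (250 before and 50 after the annotated start, build GRCm38.p6) were given for 9 of the 10 genes, and Pcyt2 was not among them. Each window below is the one listed first for its gene, written 5' to 3' on the gene's strand, and capitals mark the GC box, searched as GGGCGG or CCGCCC, and the CCAAT box, searched as CCAAT or ATTGG, where copies may overlap. Cept1 (chr3:106547753-106548052, minus strand), Chka (chr19:3851523-3851822, plus strand), Chdh (chr14:30008750-30009049, plus strand) and Slc44a2 (chr9:21320469-21320768, plus strand) read as follows.
Cept1: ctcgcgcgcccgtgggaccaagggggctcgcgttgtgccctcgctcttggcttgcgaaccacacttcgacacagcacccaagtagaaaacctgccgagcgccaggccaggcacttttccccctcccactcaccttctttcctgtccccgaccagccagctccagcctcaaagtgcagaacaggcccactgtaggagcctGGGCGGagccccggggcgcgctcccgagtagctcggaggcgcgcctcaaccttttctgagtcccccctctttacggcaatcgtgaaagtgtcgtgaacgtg
Chka: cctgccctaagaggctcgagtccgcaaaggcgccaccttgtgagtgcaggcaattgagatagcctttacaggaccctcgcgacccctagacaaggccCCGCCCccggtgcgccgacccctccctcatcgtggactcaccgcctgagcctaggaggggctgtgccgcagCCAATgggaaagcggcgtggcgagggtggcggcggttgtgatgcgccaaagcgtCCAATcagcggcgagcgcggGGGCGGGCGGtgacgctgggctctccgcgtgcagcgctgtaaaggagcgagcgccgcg
Chdh: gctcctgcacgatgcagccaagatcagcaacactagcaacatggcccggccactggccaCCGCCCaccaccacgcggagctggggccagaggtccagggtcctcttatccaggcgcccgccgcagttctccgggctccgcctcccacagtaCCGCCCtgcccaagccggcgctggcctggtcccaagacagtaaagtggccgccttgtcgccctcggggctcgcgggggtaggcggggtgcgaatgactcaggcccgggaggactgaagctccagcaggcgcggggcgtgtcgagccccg
Slc44a2: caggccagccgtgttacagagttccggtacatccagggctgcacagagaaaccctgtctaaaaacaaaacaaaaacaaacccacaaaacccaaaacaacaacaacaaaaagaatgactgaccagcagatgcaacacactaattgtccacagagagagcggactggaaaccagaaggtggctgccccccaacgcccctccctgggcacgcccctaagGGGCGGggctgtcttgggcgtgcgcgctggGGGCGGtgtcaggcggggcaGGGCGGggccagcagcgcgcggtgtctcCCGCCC
The Cept1 window held 1 GC box, the Chka window 3 GC boxes (a pair of which overlap) and 2 CCAAT boxes, the Chdh window 2 GC boxes and the Slc44a2 window 4 GC boxes. A GC box was present in 35.7% and a CCAAT box in 37.4% of all 32851 windows of the same length. GC content was 64% for Cept1, 68.7% for Chka, 70.3% for Chdh and 60% for Slc44a2, against a median of 52.7% over all windows. GC boxes stood in windows of both co-varying sets, and in 8 of the 9 first listed windows of the genes that had one, so the GC box does not divide the sets. A CCAAT box stood in the first listed windows of Chka and Chkb, each with 2, and in none of those of Cept1, Slc44a1, Chdh and Slc44a2. The pattern depends on the window, since 18 were listed for the 9 genes. Window 2 of Slc44a2 and window 3 of Cept1 each held 1 CCAAT box and no GC box. A match is a description of the sequence, and no binding was measured.

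The beta-actin ratio moved with several of the same genes. A slope on the log2 ratio within genotype, fitted with limma to all tested probe sets, was below 0 for Chka, at -0.69 log2 units per doubling of the ratio (SE 0.140, adjusted p = 0.0195), and for Cept1, at -0.44 (SE 0.102, adjusted p = 0.0287). It was above 0 for Slc44a2, at 0.45 (SE 0.0975, adjusted p = 0.0239), and for Pcyt2, at 0.40 (SE 0.0945, adjusted p = 0.0300). These 4 genes passed on the deposited values too, with slopes of -0.97, -0.48, 0.51 and 0.39 and adjusted p of 0.00138, 0.00709, 0.00350 and 0.0107 in that order. On the deposited values 31.7% of all tested probe sets passed.

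Slc44a1 passed on the normalized values (slope -0.33, SE 0.0612, adjusted p = 0.0180) and not on the deposited ones (slope -0.06, adjusted p = 0.589). In all, 5 of the 17 probe sets passed on normalized values, against 10% of all tested probe sets, and 5 of 17 on deposited values, against 31.7%. The count on deposited values was near the share of the whole array, and it included Chpt1 (1455901_at, slope -0.66, limma adjusted p = 0.0126). Without the arrays numbered 1, whose ratios were the highest, none of the 13576 tested probe sets passed, while 17.5% of them and 5 of the 17 had an unadjusted p under 0.05. Those 5 were both tested probe sets of Slc44a2 and 1 probe set, not the leading one, each of Slc44a1, Pcyt1a and Chpt1. Their slopes were 0.85 and 0.91 for Slc44a2, 0.96 for Slc44a1 (1423865_at), -1.31 for Pcyt1a (1450434_s_at) and 0.70 for Chpt1 (1435870_at). With all arrays, the normalized slope was -0.33 for the leading Slc44a1 probe set and 0.25 (SE 0.169) for 1423865_at, so the signs were opposite. They were also opposite without the arrays numbered 1, at -0.29 and 0.96. The slopes of Chka, Cept1 and Pcyt2 kept their signs there but did not reach that level (-0.55, -0.45 and 0.29, with unadjusted p of 0.169, 0.0729 and 0.210), and that of the leading Slc44a2 probe set was 0.85 (unadjusted p = 0.00293). The fit was chosen after the data had been seen.

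**Figure D4:**
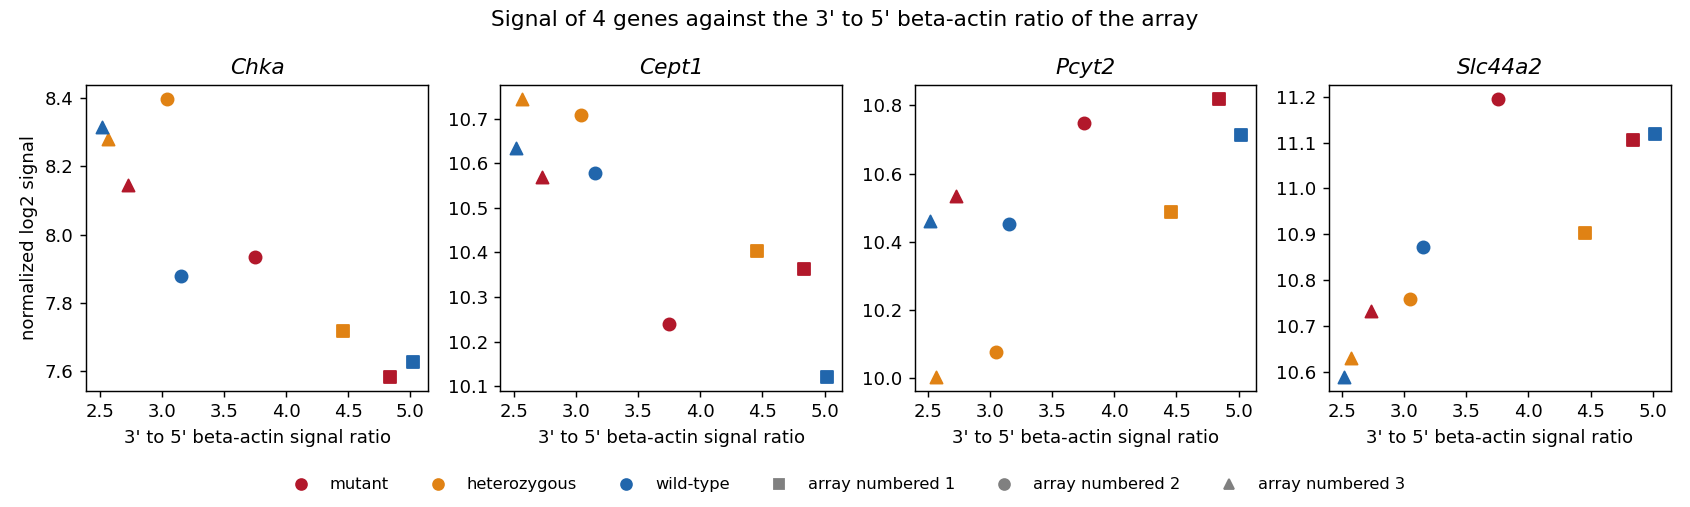
Normalized log2 signal of Chka, Cept1, Pcyt2 and Slc44a2 (vertical axes, leading probe sets) against the 3'/5' beta-actin ratio of the array (horizontal axes) in 9 colons. Colours are genotypes and marker shapes array numbers. The squares, arrays numbered 1, lie farthest right at ratios of 4.455 to 5.017. They are the lowest points for Chka and, for Pcyt2, the highest of each genotype.

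Neither choline transporter passed the test in any comparison. Slc44a1, also called choline transporter-like protein 1, carries choline across the plasma and mitochondrial membranes without sodium. Its leading probe set 1433645_at read 3944, 3652.7 and 3574.6 in mutant colons, 3700.4, 3768.8 and 4089.8 in heterozygous colons and 3661, 3905 and 4025.2 in wild-type colons. The groups overlapped throughout, and the highest of the 9 values was 1.14 times the lowest, the narrowest range among the 10 leading probe sets. Its log2 fold change was -0.05 in mutant against wild-type (SE 0.106, 95% interval -0.29 to 0.18) and 0.02 in heterozygous against wild-type (-0.21 to 0.25). The dimmer probe set 1423865_at read 116.5, 154.7 and 134 in mutant, 136.7, 167.2 and 150.1 in heterozygous and 165.9, 200.8 and 136.8 in wild-type colons. Its groups overlapped as well, with a log2 fold change of -0.25 in mutant against wild-type (SE 0.169, -0.62 to 0.12, unadjusted p = 0.162).

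Slc44a2, choline transporter-like protein 2, is a related membrane transporter of the same family. Its leading probe set 1438559_x_at read 2272.6, 2315.1 and 1669 in mutant, 1933.2, 1712.7 and 1570.7 in heterozygous and 2302.3, 1853.5 and 1510.6 in wild-type colons. The array numbered 3 was the lowest of its genotype in all 3 groups, and the groups overlapped. The share of all tested probe sets with that order was not counted. Log2 fold changes were 0.15 in mutant against wild-type (SE 0.151, -0.18 to 0.48), -0.10 in heterozygous against wild-type (-0.43 to 0.24) and 0.25 in mutant against heterozygous (-0.08 to 0.58).

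A different Slc44a2 probe set, 1428065_at, read 262.3, 268.8 and 225.5 in mutant, 245.9, 269.3 and 223 in heterozygous and 208.2, 230.1 and 181.5 in wild-type colons. Again the array numbered 3 was the lowest of each genotype, and its log2 fold change in mutant against wild-type was 0.27 (SE 0.171, -0.11 to 0.64, unadjusted p = 0.147). Another probe set of the gene, 1438860_a_at, was too dim to be tested, with means of 13.3, 13.2 and 12.5 in mutant, heterozygous and wild-type colons.

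The kinases that trap choline inside the cell as phosphocholine did not pass the test either, and Chka had the widest range of the 10 leading probe sets. Chka, choline kinase alpha, is the isoform needed for early embryonic development in mice and is raised in many tumours. It read 154.3, 230.6 and 290.3 in mutant, 179.4, 331.3 and 311.8 in heterozygous and 159.9, 230 and 319.1 in wild-type colons. The array numbered 1 was the lowest of each genotype, and the highest of the 9 values was 2.15 times the lowest, while the group means were 225 ± 68.2, 274 ± 82.6 and 236 ± 79.8 in mutant, heterozygous and wild-type colons (SD, n = 3). Log2 fold changes were -0.05 in mutant against wild-type (SE 0.228, -0.55 to 0.45), 0.19 in heterozygous against wild-type (-0.31 to 0.69) and -0.24 in mutant against heterozygous (-0.74 to 0.26).

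Chkb, choline kinase beta, is the isoform whose loss causes muscular dystrophy in mice. It read 1299.4, 1523.6 and 1425.7 in mutant, 1428.9, 1638 and 1740 in heterozygous and 1423.9, 1628.7 and 1628.7 in wild-type colons. Here too the array numbered 1 was the lowest of each genotype. Its log2 fold change was -0.15 in mutant against wild-type (SE 0.105, -0.38 to 0.08, unadjusted p = 0.177), 0.03 in heterozygous against wild-type (-0.20 to 0.26) and -0.18 in mutant against heterozygous (-0.41 to 0.05). Over all 17 probe sets, the array numbered 1 was the lowest in all 3 genotypes in 3, against 23.5% of all tested probe sets, and the highest in 1, against 10.1%.

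Pcyt1a makes CDP-choline, the step that usually limits the rate of the choline branch. Its leading probe set 1421957_a_at read 134, 113 and 206 in mutant, 102.5, 157.8 and 183.5 in heterozygous and 121.7, 123 and 124.7 in wild-type colons. The wild-type values lay within those of both other genotypes. The spread was uneven, with means of 151 ± 48.8 in mutant, 148 ± 41.4 in heterozygous and 123 ± 1.5 in wild-type colons (SD, n = 3), and the log2 fold change in mutant against wild-type was 0.23 (SE 0.195, -0.20 to 0.66). It was 0.17 in heterozygous against wild-type and 0.06 in mutant against heterozygous. Its other tested probe sets had log2 fold changes in mutant against wild-type of -0.01 (1438011_at) and 0.11 (1450434_s_at), and the remaining one was too dim to be tested.

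Pcyt2 was the member with the largest difference between genotypes on its leading probe set, as ranked by limma's moderated F. It makes CDP-ethanolamine, the step that limits the ethanolamine branch, which supplies phosphatidylethanolamine and so the substrate of Pemt. Its probe set 1420493_a_at read 1818.9, 1736 and 1473.1 in mutant colons, 1421, 1084.8 and 1039.3 in heterozygous colons and 1661.5, 1386.6 and 1392.3 in wild-type colons. All 3 mutant values lay above all 3 heterozygous values, and the wild-type values overlapped both. Means were 1676 ± 181 in mutant, 1182 ± 208 in heterozygous and 1480 ± 157 in wild-type colons (SD, n = 3), so the mutant mean was 113% and the heterozygous mean 79.8% of the wild-type mean.

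In mutant against heterozygous colons the log2 fold change of Pcyt2 was 0.51 (SE 0.140, 0.20 to 0.82), a 1.43-fold higher level, with an unadjusted p of 0.0038 and an adjusted p of 0.496. Groups that did not overlap were found for 12.4% of all tested probe sets in that comparison (6.35% with mutant colons higher), and for 1 of the 17 here. Heterozygous colons against wild-type gave -0.35 (SE 0.140, -0.66 to -0.04, unadjusted p = 0.0287, adjusted p = 0.595). Mutant colons against wild-type gave 0.16 (SE 0.140, -0.15 to 0.47), so the heterozygous mean was the lowest and the mutant mean the highest, with mutant and wild-type values overlapping. The fold change between mutant and heterozygous colons was 0.42 to 0.65 in 22 alternative analyses, with an adjusted p of 0.105 to 0.914.

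Values of other measures stood beside that of Pcyt2. The summed signal of 8 smooth muscle markers was 23824.5 to 28677.3 in mutant, 21574.9 to 23709.3 in heterozygous and 26484.7 to 27061.3 in wild-type colons. Every heterozygous sum lay below every sum of the other genotypes, while for Pcyt2 the heterozygous mean was the lowest but the values overlapped those of wild-type colons. All 8 of these markers were tested, with a median log2 fold change of 0.14 in mutant against heterozygous and none passing the adjusted threshold. Smooth muscle was 1 of 12 marker lists, and the others are not set beside Pcyt2 here. The part of the smooth muscle markers in the Pcyt2 difference was not tested. The beta-actin ratio, with which Pcyt2 also moved, averaged 3.774 ± 1.054 in mutant, 3.356 ± 0.981 in heterozygous and 3.563 ± 1.299 in wild-type colons (SD, n = 3). With that ratio as a covariate the log2 fold change between mutant and heterozygous colons was 0.44 (adjusted p = 0.120), in an analysis chosen after the data had been seen.

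The genes most like Pcyt2 over the 9 arrays, among 12488 tested probe sets with 1 symbol, were Snrpb (r = 0.967), Atp13a1 (r = 0.966) and Abcf1 (r = 0.963). Snrpb encodes a core protein of the spliceosome, Atp13a1 a P5A-type ATPase of the endoplasmic reticulum and Abcf1 an ABC protein that acts in translation initiation. The likeness is the Pearson correlation of normalized log2 values, given as a description.

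The last step of the pathway is shared by Cept1, which uses both CDP-choline and CDP-ethanolamine, and Chpt1, which uses CDP-choline. Cept1 read 1270.7, 1205.8 and 1509.3 in mutant, 1326.7, 1656.2 and 1683.4 in heterozygous and 1043.2, 1513.4 and 1557.7 in wild-type colons. Its groups overlapped, and the array numbered 3 was the highest of each genotype, an order not counted over all tested probe sets. Log2 fold changes were -0.05 in mutant against wild-type (SE 0.152, -0.39 to 0.28), 0.17 in heterozygous against wild-type (-0.16 to 0.51) and -0.23 in mutant against heterozygous (-0.56 to 0.11).

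The 4 probe sets of Chpt1 did not give the same picture. Its leading probe set 1435446_a_at read 587, 968.7 and 916 in mutant, 912.4, 926.1 and 912.6 in heterozygous and 902.8, 866.3 and 854.7 in wild-type colons. Only the mutant array numbered 1 stood low, and the log2 fold change in mutant against wild-type was -0.11 (SE 0.151, -0.45 to 0.22). The dim probe set 1426146_a_at read 63.8, 140.9 and 143.6 in mutant, 177.9, 167.3 and 147 in heterozygous and 244.8, 185.6 and 156.9 in wild-type colons. All 3 mutant values lay below all 3 wild-type values, which held for 4.19% of all tested probe sets (8.42% in either direction) and for 1 of the 17 here, and the mutant mean was 59.3% of the wild-type mean.

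On that probe set of Chpt1 the log2 fold change in mutant against wild-type was -0.72 (SE 0.256, -1.28 to -0.15, unadjusted p = 0.0171, adjusted p = 0.998). It rested in part on the arrays numbered 1: without the mutant one it was -0.46, without the wild-type one -0.48, and without all 3 arrays of that number -0.22 (unadjusted p = 0.0822, 0.0787 and 0.238 in that order). Another bright probe set, 1435870_at, read 617.9, 937.4 and 763.8 in mutant against 770.3, 882.7 and 793.8 in wild-type colons, with the groups overlapping and a log2 fold change of -0.10. The remaining one, 1455901_at, read 94.8, 138.6 and 161 in mutant against 91.5, 146 and 132.5 in wild-type colons, with a log2 fold change of 0.09.

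The mutant array numbered 1 also had the lowest summed signal of 5 adipocyte markers, 2715.6, where the other 2 mutant arrays had 6100.3 and 6242.8, the heterozygous arrays 6078.4 to 8616.9 and the wild-type arrays 6199.4 to 8807.8. All 4 of these markers that could be tested had log2 fold changes below 0 in mutant against wild-type, with a median of -0.63, and none passed the adjusted threshold. Adipocytes were 1 of 12 marker lists. Every tested marker also lay below 0 for T cells (3, median -0.82), B and plasma cells (2, -0.49) and macrophages (7, -0.29). The same held for enteric neurons and glia (3, -0.19) and for fibroblasts and matrix (6, -0.09). Those of small intestine and exocrine pancreas lay above 0, and the remaining lists were mixed. The part of the adipocyte difference in the Chpt1 values was not tested.

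**Figure D5:**
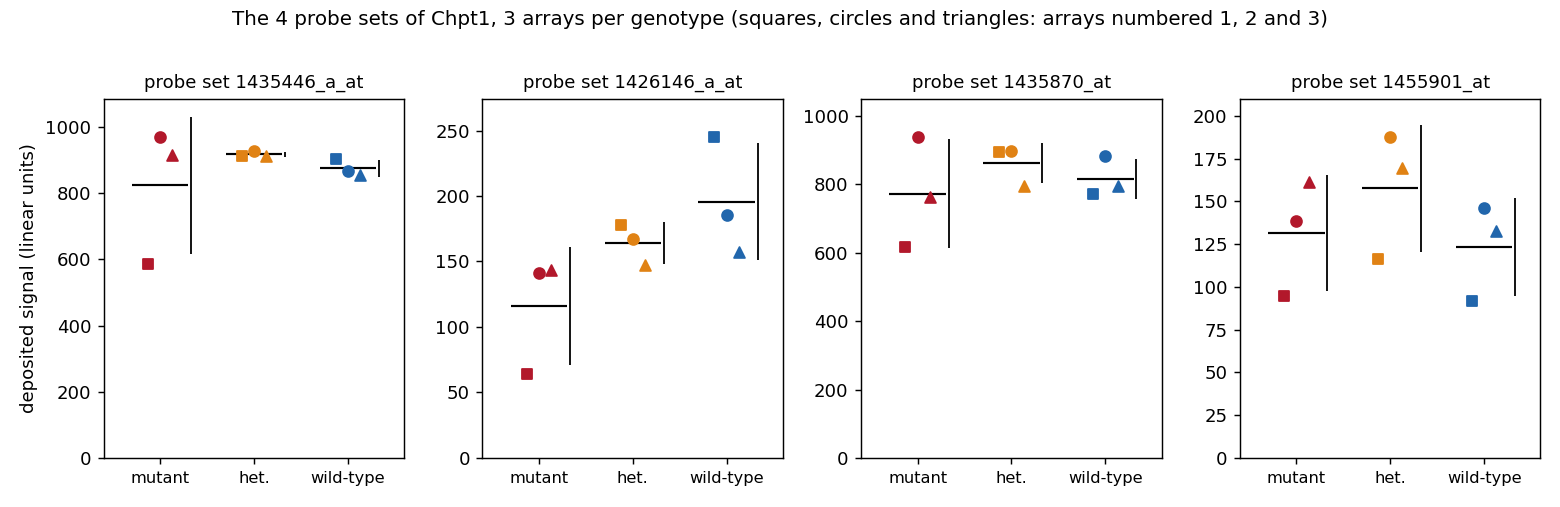
Deposited signal (linear units, axes from 0) of the 4 probe sets of Chpt1 in 3 mutant (red), 3 heterozygous (orange) and 3 wild-type (blue) colons. Squares, circles and triangles are the arrays numbered 1, 2 and 3, horizontal lines are means and vertical lines 1 SD either side of the mean (n = 3). The mutant array numbered 1 is the lowest point of its genotype in each panel, and in 1426146_a_at all 3 mutant points lie below the wild-type points.

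Pemt methylates phosphatidylethanolamine to phosphatidylcholine and is the route that makes choline anew. It was close to the brightness needed for a test, with 74.9, 89.6 and 94.7 in mutant, 108.7, 93.4 and 93.2 in heterozygous and 90.1, 84.9 and 82.3 in wild-type colons, where the limit was 75.5. The heterozygous values lay above the wild-type values on the deposited scale and overlapped them after normalization. Log2 fold changes were 0.02 in mutant against wild-type (SE 0.163, -0.34 to 0.38) and 0.12 in heterozygous against wild-type (-0.23 to 0.48). Pemt lies on chromosome 11 like Shmt1, with 14 protein-coding genes between them in GRCm38.p6.

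Chdh, choline dehydrogenase, starts the oxidation of choline to betaine in mitochondria. It read 1514.8, 1651.4 and 1221.5 in mutant, 1411.1, 1291.7 and 1313.3 in heterozygous and 1660.9, 1367.7 and 1412.4 in wild-type colons. The groups overlapped, with log2 fold changes of -0.04 in mutant against wild-type (SE 0.128, -0.32 to 0.24), -0.15 in heterozygous against wild-type (-0.43 to 0.13) and 0.11 in mutant against heterozygous. Bhmt, Bhmt2, Dmgdh, Sardh and Gnmt were listed under betaine and methyl group use. Their means over the 9 arrays lay below the brightness needed for a test. So did that of Mat1a, the S-adenosylmethionine synthetase of liver, from the same list.

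Bhmt, which passes a methyl group of betaine to homocysteine, is named here after its values were seen. It read 82.1, 144.9 and 78.5 in mutant colons, 46.5, 51.7 and 29.7 in heterozygous colons and 55, 38.4 and 42.2 in wild-type colons. All 3 mutant values lay above the limit of 75.5 and above every value of the other genotypes, and the mutant mean was 225% of the wild-type mean. With no filter on dim probe sets, the log2 fold change was 0.92 in mutant against wild-type (SE 0.262, 0.34 to 1.5, unadjusted p = 0.00508, limma adjusted p = 0.998 over 22626 probe sets). It was 1.03 in mutant against heterozygous (0.45 to 1.61, unadjusted p = 0.00245, adjusted p = 0.517). Without the filter, 4.37% and 7.01% of all probe sets had a limma unadjusted p under 0.05 in these comparisons, in that order. Groups did not overlap for 8.42% and 12.4% of the 13576 probe sets that passed the filter. Bhmt was not among these, and the share among dim probe sets was not counted. Of the other pathway genes too dim for a test, Pld2 and Mat1a lay lower and Lpin3 higher in mutant than in wild-type colons. Their groups did not overlap on the normalized scale, and they too are named after their values were seen. Pld2 read 12.5, 22.9 and 29.2 in mutant against 33.6, 33.1 and 35 in wild-type colons. Mat1a read 0.4, 0.5 and 1 against 2.8, 1.4 and 5, far below the limit of 75.5. Lpin3 read 44.4, 58.8 and 69.9 against 37.1, 49.3 and 48.9, values that overlap as deposited.

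Around these 10 genes, 62 others of choline and phosphatidylcholine metabolism were listed (transport, the ethanolamine branch, phosphatidylserine routes, remodelling and breakdown, and betaine and methyl group use). Of these, 46 were on the array and 30 could be tested on their leading probe set, and none passed the adjusted threshold in any comparison, with smallest adjusted p of 0.998 in mutant against wild-type, 0.557 in heterozygous against wild-type and 0.595 in mutant against heterozygous. At an unadjusted p under 0.05 there were 0 in mutant against wild-type (3.84% of all tested probe sets), and 2 higher and 1 lower each in heterozygous against wild-type (8.01%) and mutant against heterozygous (7.56%). Median log2 fold changes were 0.01, -0.03 and 0.02 in the same order. Groups did not overlap for 1 of the 30 in mutant against wild-type (8.42% of all tested probe sets), for 7 in heterozygous against wild-type, where 14.7% of all tested probe sets and none of the 17 above did not, and for 3 in mutant against heterozygous (12.4%).

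Sgms1, sphingomyelin synthase 1, which moves the phosphocholine head group of phosphatidylcholine onto ceramide, had 125.1, 125.6 and 208.5 in mutant, 179.3, 211.6 and 284.9 in heterozygous and 116, 162.6 and 162.6 in wild-type colons. Every heterozygous value lay above every wild-type value, and the log2 fold change was 0.54 in heterozygous against wild-type (SE 0.173, unadjusted p = 0.00936, adjusted p = 0.557) and -0.51 in mutant against heterozygous. Gde1, a phosphodiesterase that releases head groups from glycerophosphodiesters, read 700.3, 840.3 and 782.5 in mutant, 540.9, 661.5 and 633.5 in heterozygous and 671.8, 797.4 and 747.2 in wild-type colons. Every heterozygous value lay below every value of the other genotypes, while for Pcyt2 heterozygous and wild-type values overlapped. The log2 fold change of Gde1 was 0.34 in mutant against heterozygous (adjusted p = 0.595) and -0.28 in heterozygous against wild-type.

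Stard7, which carries phosphatidylcholine to mitochondria, read 2643.5, 2054.3 and 2296.6 in mutant, 2586.7, 2517.4 and 2186.5 in heterozygous and 2112.1, 1996.6 and 1979.1 in wild-type colons. Its heterozygous values lay above the wild-type values, with a log2 fold change of 0.26 (unadjusted p = 0.0146). Lpcat3, which attaches polyunsaturated fatty acids to lysophosphatidylcholine, had a log2 fold change of 0.34 in mutant against heterozygous (unadjusted p = 0.0330). Lypla1 and Lypla2, thioesterases also known as lysophospholipases, had log2 fold changes of 0.24 in heterozygous against wild-type and 0.20 in mutant against wild-type in that order, with no overlap between the groups on the normalized scale.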

How the data were processed

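Total RNA from proximal colon was amplified with a NuGEN Ovation kit from about 50 ng and labelled with biotin, per the labels' protocols. The authors deposited intensities, 1 linear signal per probe set and array, and GCOS, an Affymetrix program, is named in the submitters' processing notes with its version and settings not given. The number of arrays, 3 per genotype, limits the precision. From these values log2(signal + 16) was computed and quantile normalized, after 64 control probe sets had been left out of 22690. A filter at the 40th percentile of the mean over 9 arrays kept 13576. Adding 16 shrinks the fold changes of dim probe sets.

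Each probe set was tested with limma 3.58.1 (R 4.3.3, lmFit and eBayes with a trend), all 9 arrays in 1 fit without covariates, with Benjamini-Hochberg adjustment over all 13576 and a threshold of 0.05, in 3 comparisons. The fit was tested on simulated data with independent noise in each probe set and array, which leave out variation shared between arrays. The labels call the arrays biological replicates. Symbols are those of the platform annotation, which can be outdated: 20380 probe sets have 1 symbol, 691 several and 1555 none. A gene table of GRCm38.p6 gave chromosomes, neighbours and synonyms only, since the array names no build. Named are all 10 genes with every probe set, and, of the other pathway genes, per comparison the 4 with the smallest p whose groups do not overlap on the normalized scale. The genes and lists were chosen with earlier results of these data known, and the probe sets then by symbol alone. Figures were drawn with Python 3.11.15 and matplotlib 3.10.9. Alternatives were other scalings, pseudocounts, filters and eBayes options, array weights, the replicate number as a block, 2 genotypes at a time, and leaving out arrays.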

Additional observations from a re-analysis of the deposited data

How the results depend on the processing

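No member passed the adjusted threshold in any comparison under any of the 22 alternatives. The number of all tested probe sets that passed in mutant against wild-type was 3, and became 9 with array weights, 5 with the replicate block, 5 with the beta-actin ratio as a covariate (added after seeing the data) and 2 to 9 with arrays left out. In heterozygous against wild-type it was 0, 134 with array weights and 0 to 3 with arrays left out. In mutant against heterozygous it was 3, 5 with only those genotypes, 8 with the replicate block and 1 to 7 with arrays left out. The number of member probe sets with unadjusted p under 0.05 was 1 in each comparison. In mutant against wild-type it became 0 of 8 with a filter at the 60th percentile (3.6% of all tested), 4 of 17 with array weights (16.3%), 2 with the replicate block (7.24%) and 0 to 2 with arrays left out. In heterozygous against wild-type it became 0 with median centring (5.73%), 2 with the replicate block (12.4%) and 0 to 2 with arrays left out, and in mutant against heterozygous 3 with array weights (13.2%), 3 with the replicate block (13%) and 1 to 2 with arrays left out. Nothing in the labels says that array numbers pair the mice. Deviations of arrays of different genotypes correlated at -0.0589 to 0.463 with the same number and -0.507 to 0.275 with different numbers, and 6 of 9 arrays correlated best with one of their own number. The median of the leading probe sets in mutant against wild-type became 0.023 with array weights and -0.047 to 0.066 with arrays left out, and in mutant against heterozygous -0.12 to -0.017 with arrays left out. No gene that changed sign had passed a threshold, and the reported fold changes ran up to 0.12 above 0 (Pemt, heterozygous against wild-type) and -0.17 below it (Chpt1, mutant against heterozygous). With the beta-actin covariate the sign changed for Chka (0.021) and Pemt (-0.013) in mutant against wild-type and Slc44a1 (-0.0026) in heterozygous against wild-type, where it was also -0.0042 as deposited, -0.032 with median centring and -0.013 with array weights. With array weights Chdh was 0.11 in mutant against wild-type and Pcyt1a -0.070 in mutant against heterozygous. With arrays left out, mutant against wild-type spanned -0.21 to 0.14 for Chka, -0.048 to 0.15 for Pemt, -0.13 to 0.093 for Chdh, -0.16 to 0.026 for Slc44a1, -0.21 to 0.041 for Cept1 and -0.24 to 0.13 for Chpt1. Heterozygous against wild-type spanned -0.039 to 0.11 for Chkb, -0.010 to 0.23 for Pemt, -0.092 to 0.11 for Slc44a1 and -0.23 to 0.033 for Slc44a2. Mutant against heterozygous spanned -0.12 to 0.23 for Pcyt1a, -0.19 to 0.046 for Pemt, -0.16 to 0.012 for Slc44a1 and -0.30 to 0.035 for Chpt1. The causes were not tested. The filter at the 60th percentile removed Chka, Pcyt1a and Pemt, so no value exists for them there. Pemt, at the 42.3 percentile of mean signal, lies near the filter limit.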
